A study of Mus musculus with 6 samples.

Results

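Toll-like receptors (TLRs) and their closest partners were followed in mouse eosinophils treated with extracellular vesicles (EVs) from activated TH2 cells. The 10 genes were the receptors Tlr1, Tlr2, Tlr4, Tlr6, Tlr7, Tlr8, Tlr9 and Tlr13, the co-receptor Cd14 and the adaptor Myd88. They were taken by symbol from the deposited count table, and the list itself was drawn up with earlier results of these data known. All 10 were among the 16254 genes of that table, and all 10 were among the 13498 genes kept for testing by a filter on low counts.

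Eosinophils were grown from the bone marrow of C57BL/6 mice aged 6 to 12 weeks, with FLT3 ligand and stem cell factor first and IL-5 afterwards. On culture day 12 they received 5e+09 EVs per ml, isolated from the medium of TH2 cells restimulated through the T-cell receptor, or a sham control, which was medium that had held no cells and had gone through the same EV isolation. RNA was collected at 24 h from 3 cultures of each kind, poly(A) selected and sequenced. The labels call the cultures biological replicates and do not say whether they came from separate animals, so that p-values measure the spread between these cultures, which may be technical. No sorting of eosinophils before RNA extraction is described in the sources used here. In the paper, activated TH2 cell EVs at this dose increased eosinophil survival at 24 h over untreated cells. Viability may thus have differed between the groups, and its part in the values below was not tested.

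TLRs recognise molecules that microbes and damaged cells carry. A group of them sits at the cell surface and binds lipids and proteins of bacterial walls, and another group sits in endosomes and binds nucleic acids. Nearly all of them signal through the adaptor MyD88, which passes the signal through IRAK kinases and TRAF6 to NF-kB and MAP kinases, and TLR4 and TLR3 also use the adaptor TRIF. Eosinophils carry several of these receptors, as macrophages and monocytes do.

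Before the receptors, the libraries themselves were compared. Estimated counts summed to between 23697620 and 32808674 in the sham-treated and between 32260914 and 37874426 in the EV-treated libraries, with sham replicates 2 and 3 the shallowest. Values below are normalized counts, which are rounded counts divided by the library size after TMM scaling. The defining markers of eosinophils were abundant in every library. The 13 eosinophil markers summed to between 942244 and 1186891 normalized counts in sham-treated and between 1344201 and 1501687 in EV-treated libraries. Of the 13 markers 9 were called higher with EVs and none lower, with a median log2 fold change of 0.69. The granule protein gene Prg2 made up 59.5% of the sham sum. Sham replicate 1 stood apart from the other sham libraries in 16 macrophage and monocyte markers, which summed to 107081 there against 163605 and 159080 in sham replicates 2 and 3 and to between 73652 and 83516 with EVs. Of these 16 markers 11 fell and 2 rose with EVs, with a median log2 fold change of -2.52. The chemokine receptor gene Cx3cr1 was at 0 in all 3 EV-treated libraries.

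In eosinophil cultures treated with activated TH2 cell EVs, the transcript of the lipopolysaccharide receptor Tlr4 was higher than with sham, and that of its co-receptor Cd14 was lower, as were those of Tlr1, Tlr2, Tlr7 and Tlr8. Tlr6, Tlr9, Tlr13 and Myd88 did not pass the test. A gene was called at a Benjamini-Hochberg adjusted p under 0.01 over all genes tested, from edgeR's quasi-likelihood test. By this rule 1 of the 10 genes was higher and 5 were lower with EVs. Over all genes tested, 12.1% were called higher, 11.6% lower and 23.7% in either direction. All 6 called genes differed by at least 2-fold, a size reached with the call by 3.10% of all genes upward and by 6.35% downward. The median log2 fold change of the 10 genes was -1.33, against -0.01 for all genes tested. The groups did not overlap in 8 of the 10 genes, with the EV-treated libraries below in 6 and above in 2. Over all genes tested 49.6% showed no overlap, with the EV-treated libraries below in 24.7% and above in 24.8%. Tlr4, Tlr7, Tlr8 and Cd14 were called with any 1 library left out. Without sham replicate 1, 2 of the 10 genes were higher and 5 were lower.

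**Figure D1:**
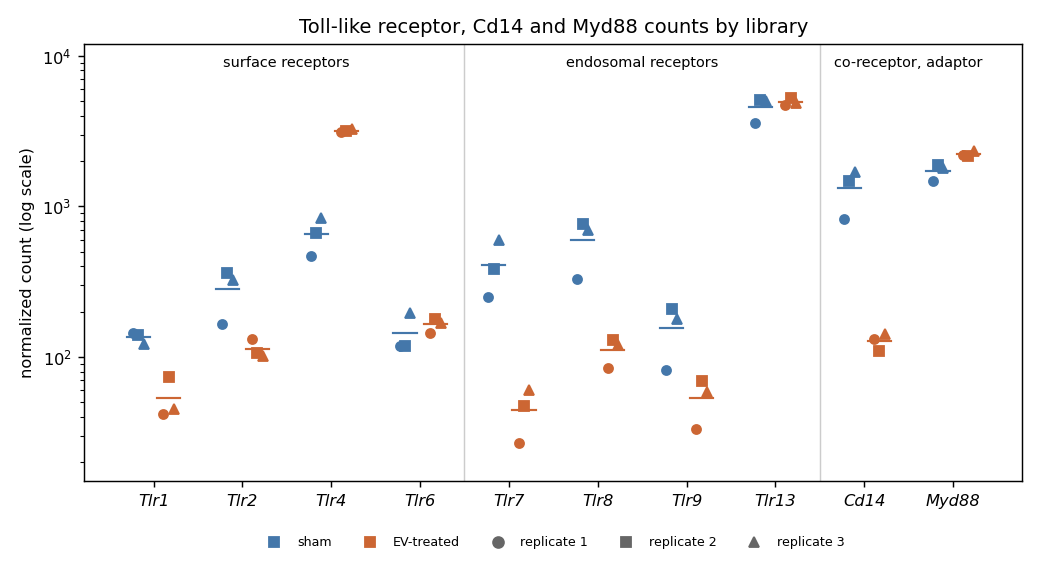
Normalized counts on a log scale for the 8 receptors, Cd14 and Myd88 in 3 sham-treated (blue) and 3 EV-treated (orange) libraries, with symbols for the replicate number and short lines at the group means. The EV-treated libraries lay above the sham-treated ones for Tlr4 and Myd88 and below them for Tlr1, Tlr2, Tlr7, Tlr8, Tlr9 and Cd14, while the groups overlapped for Tlr6 and Tlr13.

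TLR4 is the surface receptor for bacterial lipopolysaccharide. The gene lies on chr4:66827584-66930284 on the plus strand of GRCm38, in the GENCODE vM21 annotation. Its normalized counts were 467, 662 and 843 in sham replicates 1 to 3 and 3118, 3188 and 3251 in EV replicates 1 to 3. Every EV-treated library held several times the count of every sham-treated one, and the EV-treated libraries were close to each other. The log2 fold change was 2.28 with a standard error of 0.169 (edgeR adjusted p = 4.85e-06), or 4.87-fold. With 1 library left out, the log2 fold change stayed between 2.09 and 2.51.

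CD14 binds lipopolysaccharide at the cell surface and hands it to the complex of TLR4 and MD-2. Cd14 moved the opposite way to Tlr4. Its normalized counts were 829, 1479 and 1683 in the sham-treated libraries and 131, 109 and 142 in the EV-treated libraries. All 3 sham-treated libraries were far above all EV-treated ones, and sham replicate 1 was the lowest of the sham group. Cd14 fell by a log2 fold change of -3.38 (standard error 0.253, edgeR adjusted p = 5.18e-06), a level 10.4-fold lower than in sham-treated eosinophils. Sham replicate 1 held 52.4% of the mean of the other 2 sham libraries for Cd14 and 66.4% for the summed macrophage and monocyte markers, which also fell with EVs. The part of those cells in the result was not tested, and in these bulk samples fewer cells of a type and less RNA per cell cannot be told apart.

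No other gene of lipopolysaccharide recognition named here was called higher with Tlr4. Ly96, which encodes the MD-2 subunit that TLR4 needs to bind lipopolysaccharide, had 47.8, 107 and 79.0 normalized counts in sham-treated and 73.9, 42.9 and 72.2 in EV-treated libraries. The groups overlapped, with a log2 fold change of -0.30 (standard error 0.40, edgeR adjusted p = 0.607). Lbp, the lipopolysaccharide-binding protein of plasma, had a log2 fold change of -0.57 (edgeR adjusted p = 0.0693). Cd180, a TLR4-like surface protein that modulates the response to lipopolysaccharide, fell from 1513 ± 488 to 551 ± 101 normalized counts (SD, n = 3), with a log2 fold change of -1.45 (edgeR adjusted p = 0.000786). Like Cd14, Cd180 was lowest in sham replicate 1 among the sham libraries, at 954 normalized counts against 1730.5 and 1855. Its partner Ly86, known as MD-1, was near the limit of detection with 9.91 to 13.5 normalized counts in sham-treated and 0 to 3.43 in EV-treated libraries (edgeR adjusted p = 0.067).

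**Figure D2:**
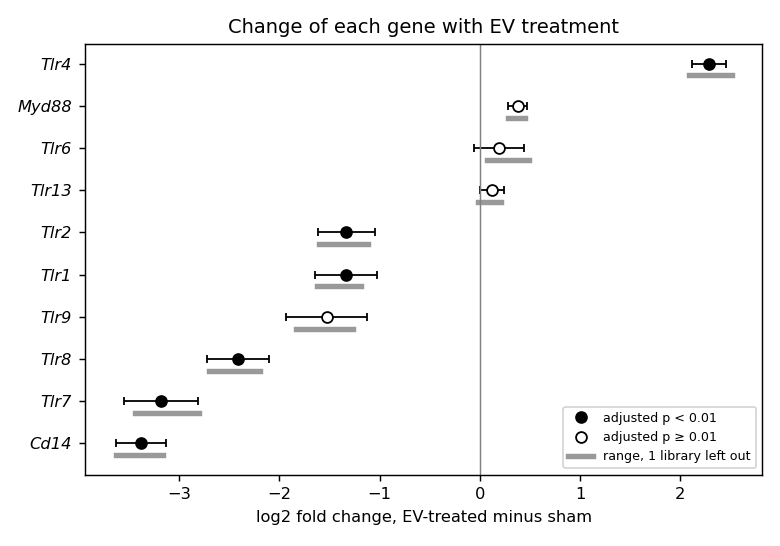
Log2 fold change of each gene, EV-treated minus sham-treated, with bars of 1 standard error on either side. Filled points passed an edgeR adjusted p of 0.01, open points did not, and grey bars span the log2 fold changes with 1 library left out. Tlr4 stands alone on the right, at 2.28, and Cd14, at -3.38, lies farthest to the left.

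TLR2 recognises bacterial lipopeptides as a pair with TLR1 or with TLR6. Tlr2 (chr3:83836272-83841767, minus strand) had normalized counts of 167, 363 and 324 in sham-treated and 131, 106 and 101 in EV-treated libraries. All EV-treated libraries were below the sham-treated ones, but sham replicate 1 came close to EV replicate 1. Tlr2 fell by a log2 fold change of -1.33 (standard error 0.287, edgeR adjusted p = 0.00482). The call was lost in limma-voom (adjusted p = 0.0156), and in edgeR it was lost without sham replicate 2 (0.0188), sham replicate 3 (0.0231), EV replicate 2 (0.0241) or EV replicate 3 (0.0281). Sham replicate 1 held 48.5% of the mean of the other sham libraries for Tlr2, again the lowest of its group as for the macrophage and monocyte markers, whose part in the result was not tested.

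Tlr1 and Tlr6, the partner receptors of TLR2, lie side by side on the minus strand of chromosome 5, at 64924679 to 64933563 and at 64952031 to 64960097. Their transcripts are alike in part. Of the 31-base words of the longest Tlr1 coding transcript in GENCODE vM21, 20.1% also occur in Tlr6, and 16.7% of those of Tlr6 occur in Tlr1. The other 8 genes shared no such word with another gene read in the same direction. Words on the opposite strand were not compared. Windows of a preset 300 coding bases were compared without gaps, and a window with the fewest differences was taken. This window lies at chr5:64925586-64925885 in Tlr1 and at chr5:64953877-64954176 in Tlr6, both on the minus strand. It is printed for Tlr1 because reads from it can be assigned to either gene, and the capital marks the 1 base that differs, C120T, counted from 1 at the 5′ end with the base of Tlr1 first.
Tlr1: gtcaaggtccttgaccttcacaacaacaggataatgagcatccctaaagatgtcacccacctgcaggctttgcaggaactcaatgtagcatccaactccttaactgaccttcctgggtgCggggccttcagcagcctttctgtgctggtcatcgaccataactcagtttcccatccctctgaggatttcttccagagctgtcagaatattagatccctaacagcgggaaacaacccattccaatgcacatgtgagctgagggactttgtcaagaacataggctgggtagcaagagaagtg
Over the 2379 coding bases aligned between Tlr1 and Tlr6, the longest run without a difference was 229 bases.

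The estimated counts of the pair were mostly fractional, but their sum was not. In sham replicate 1, Tlr1 had an estimated count of 161.301 and Tlr6 one of 130.699, which sum to 292. In all 6 libraries the sum was whole at 3 decimals, at 292, 210 and 263 in sham-treated and 187, 296 and 246 in EV-treated libraries, although at least 1 gene of the pair was fractional in 5 of them.

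Tlr1 had normalized counts of 145, 140 and 123 in sham-treated and 42.0, 73.7 and 45.3 in EV-treated libraries. All EV-treated libraries were below all sham-treated ones, and sham replicate 1 was the highest of its group here. Tlr1 fell by a log2 fold change of -1.34 (standard error 0.306, edgeR adjusted p = 0.00685). The call was lost without sham replicate 1 (0.0161), sham replicate 2 (0.0154), sham replicate 3 (0.0143), EV replicate 1 (0.0298) or EV replicate 3 (0.0375).

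Tlr6 had normalized counts of 118, 118 and 197 in sham-treated and 145, 180 and 169 in EV-treated libraries. The groups overlapped, with sham replicate 3 the highest of all 6 libraries. The log2 fold change was 0.19 (standard error 0.251, edgeR adjusted p = 0.594). Within the summed counts of the pair, Tlr6 took 44.9% (95% Clopper-Pearson interval 39.1% to 50.8%), 45.7% (38.8% to 52.7%) and 61.6% (55.4% to 67.5%) in the sham-treated libraries. With EVs it took 77.5% (70.9% to 83.3%), 71.0% (65.4% to 76.1%) and 78.9% (73.2% to 83.8%). The share was higher in every EV-treated library than in every sham-treated one, and these intervals cover counting error only, not the division of shared reads. When the pair was summed and tested as 1 gene, an alternative chosen after the counts had been seen, the log2 fold change was -0.36 (standard error 0.180, edgeR adjusted p = 0.154).

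The endosomal receptors TLR7 and TLR8 recognise single-stranded RNA and its breakdown products. Their genes are neighbours on the minus strand of the X chromosome, Tlr8 at 167242696 to 167264329 and Tlr7 at 167304929 to 167330558, and both fell with EVs. Tlr7 had normalized counts of 250.5, 385 and 598 in sham-treated and 27.0, 47.1 and 60.1 in EV-treated libraries. The lowest sham-treated library was still several times above the highest EV-treated one. Tlr7 changed by a log2 fold change of -3.18 (standard error 0.370, edgeR adjusted p = 9.62e-05), or 9.09-fold lower. With 1 library left out the log2 fold change stayed between -3.45 and -2.81.

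Tlr8 had normalized counts of 332, 766 and 701 in sham-treated and 84.9, 130 and 120 in EV-treated libraries. Sham replicate 1 was the lowest of its group and lay between the other sham libraries and the EV-treated ones, without overlap. The log2 fold change was -2.41 (standard error 0.308, edgeR adjusted p = 0.000178), or 5.33-fold lower.

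TLR9 recognises DNA rich in unmethylated CpG. Tlr9 (chr9:106222598-106226883, plus strand) had normalized counts of 82.0, 208 and 177 in sham-treated and 33.0, 69.4 and 58.3 in EV-treated libraries. The groups did not overlap, but sham replicate 1 came close to the highest EV-treated library. The log2 fold change of -1.53 (standard error 0.405) did not pass the test, with an edgeR adjusted p of 0.0145. Tlr9 did pass without sham replicate 1, with a log2 fold change of -1.83 (edgeR adjusted p = 0.00225), and in DESeq2 on all 6 libraries (adjusted p = 0.00204). In edgeR it also passed with total count scaling (0.00894) and with the replicate block (0.00124). It did not pass in limma-voom (adjusted p = 0.0386). With any other library left out, Tlr9 did not pass in edgeR, at adjusted p values of 0.026 to 0.052.

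These 3 receptors and Tlr2 shared a low value in sham replicate 1. There Tlr7 stood at 51.0%, Tlr8 at 45.2% and Tlr9 at 42.5% of the mean of the other sham libraries, lower than the 66.4% of the macrophage and monocyte markers. Against those other sham libraries alone, the EV-treated libraries were 11.0-fold lower in Tlr7, 6.56-fold lower in Tlr8 and 3.60-fold lower in Tlr9. Of the other genes, Tlr4 stood at 62.0%, Tlr13 at 71.5%, Tlr6 at 75.1% and Myd88 at 80.2%. Tlr1, which fell with EVs, stood at 110.6%. The part of macrophages or monocytes in these values was not tested.

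**Figure D3:**
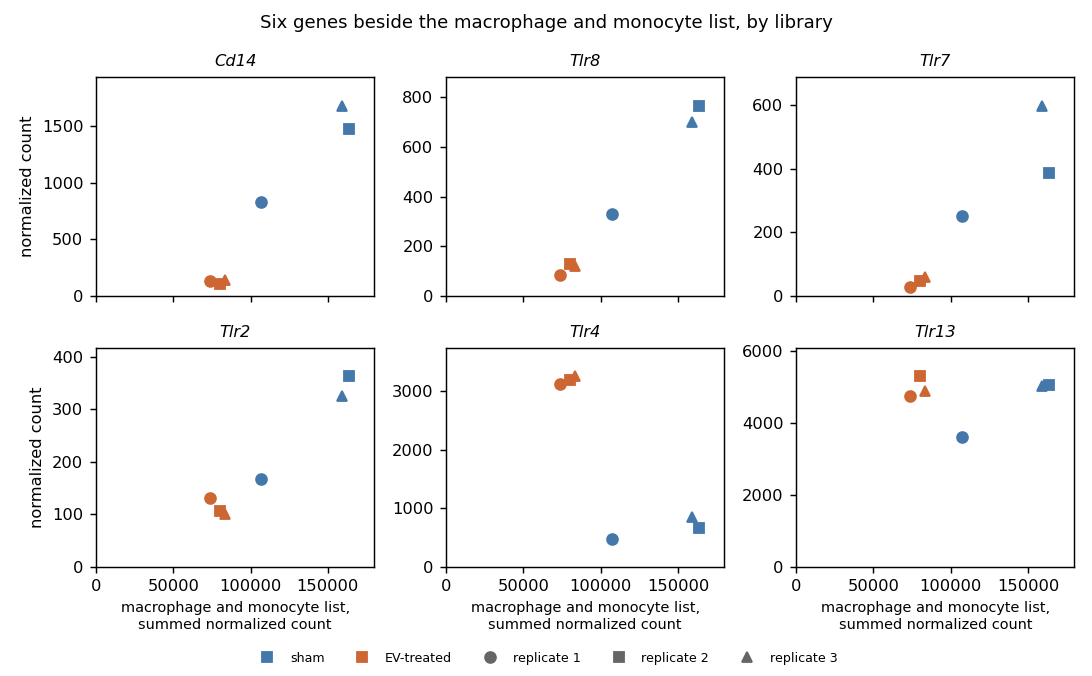
Normalized counts of Cd14, Tlr8, Tlr7, Tlr2, Tlr4 and Tlr13 against the summed normalized count of 16 macrophage and monocyte markers, for each library. Sham replicate 1 (blue circle), at 107081 for the markers, lay between the other sham libraries and the EV-treated ones for Cd14, Tlr8, Tlr7 and Tlr2, while Tlr4 was highest in the EV-treated libraries, at 73652 to 83516 for the markers, and among the sham libraries was lowest in sham replicate 1.

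Promoter sequences in RefSeq (GRCm38.p6) were found for 7 of the 10 genes, and are printed for Tlr8 and Tlr9, the nucleic acid receptors whose RefSeq start was also the GENCODE start. Each is the 250 bases before the start in the direction of transcription, with the letters of a matched motif in capitals. Tlr8 is at chrX:167264330-167264579 on the minus strand and Tlr9 at chr9:106222348-106222597 on the plus strand.
Tlr8: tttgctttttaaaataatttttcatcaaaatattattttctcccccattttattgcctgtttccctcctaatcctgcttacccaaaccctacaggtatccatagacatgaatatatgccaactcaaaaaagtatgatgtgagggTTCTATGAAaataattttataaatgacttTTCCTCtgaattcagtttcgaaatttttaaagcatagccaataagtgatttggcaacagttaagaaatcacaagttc
Tlr9: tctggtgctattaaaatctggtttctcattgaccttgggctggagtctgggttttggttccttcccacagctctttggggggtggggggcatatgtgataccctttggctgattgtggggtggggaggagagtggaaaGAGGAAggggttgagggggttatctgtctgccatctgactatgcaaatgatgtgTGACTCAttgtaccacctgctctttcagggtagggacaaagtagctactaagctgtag
Motifs were searched on both strands by their letters, and these matches do not overlap one another. The Tlr8 window held the STAT motif TTCNNNGAA, found in 7.02% of 32851 promoter windows of this length, and on the other strand the PU.1 motif GAGGAA, found in 23.3%. The Tlr9 window held the PU.1 motif and the AP-1 motif TGANTCA, found in 6.75% of windows. Neither held the NF-kB motif (GGGA, any 4 bases, CC), the C/EBP motif TTGCNNNAA or the interferon response motif (GAAA, any 2 bases, GAAA).

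TLR13 recognises bacterial ribosomal RNA and is found in mice but not in humans. Tlr13 (chrX:106143204-106160493, plus strand) was the most abundant receptor transcript of both groups per length of transcript, and its difference between them was within the spread of the libraries. Its normalized counts were 3604, 5058 and 5029 in sham-treated and 4728, 5288 and 4875 in EV-treated libraries. The groups overlapped, with sham replicate 1 the lowest of the 6. The log2 fold change was 0.12 (standard error 0.118, edgeR adjusted p = 0.467). It was -0.02 without sham replicate 1, and -0.03 when the libraries were scaled by their total count alone.

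Myd88 (chr9:119335934-119341411, minus strand) encodes the adaptor that all the receptors above can use. Its normalized counts were 1478, 1880.0 and 1804 in sham-treated and 2183, 2174 and 2348 in EV-treated libraries. All EV-treated libraries were above all sham-treated ones, by a small margin. The log2 fold change of 0.38 (standard error 0.0937) just missed the threshold, with an edgeR adjusted p of 0.0102. It passed without sham replicate 1 (0.00929) or sham replicate 2 (0.0075), in DESeq2 (0.00144) and in limma-voom (0.00645), and its largest adjusted p with 1 library left out was 0.0494. With total count scaling its log2 fold change was 0.23 (edgeR adjusted p = 0.0859). Exons of Myd88 overlap those of Acaa1a on the other strand, and whether counting used strand is not given in the sources used here.

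The remaining TLR genes of the mouse that were in the count table were few in counts. Tlr3, the endosomal receptor for double-stranded RNA, had 48.7, 56.4 and 125 normalized counts in sham-treated and 2.00, 6.86 and 6.09 in EV-treated libraries. It was nearly absent from the EV-treated libraries and present in all sham-treated ones, and fell by a log2 fold change of -3.89 (standard error 0.660, edgeR adjusted p = 0.00117). Tlr12 did not exceed 19.4 normalized counts in any library (log2 fold change 0.40, edgeR adjusted p = 0.797). Tlr5, the flagellin receptor, was below the filter on low counts with at most 15.9 normalized counts. Tlr11 was looked for by symbol and was not among the 16254 genes of the count table.

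Among the other adaptors, Tirap, which bridges MyD88 to TLR2 and TLR4, rose slightly. Its normalized counts went from 727 ± 99.8 to 1021 ± 37.6 (SD, n = 3), with a log2 fold change of 0.49 (edgeR adjusted p = 0.00646). The call was lost without EV replicate 1 (0.0293), EV replicate 2 (0.0239) or EV replicate 3 (0.0273), and with total count scaling (0.0331). The adaptors of the TRIF branch were not called. Ticam1, which encodes TRIF, had a log2 fold change of 0.16 (edgeR adjusted p = 0.292), and Ticam2, which links TRIF to TLR4, one of -0.61 (edgeR adjusted p = 0.0426). Pik3ap1, an adaptor between TLRs and phosphoinositide kinase, had a log2 fold change of -0.40 (edgeR adjusted p = 0.0165). It passed without sham replicate 1, at -0.52 (edgeR adjusted p = 6.78e-05). Cd36, a scavenger receptor that assists TLR2 and TLR6, fell from 17785 ± 5495 to 4184 ± 937 normalized counts (SD, n = 3), with a log2 fold change of -2.09 (edgeR adjusted p = 7.05e-05). It was lowest in sham replicate 1 among the sham libraries, at 11449 normalized counts against 21252 and 20652. Sarm1 was below the filter, with at most 4.86 normalized counts. Of these 10 adaptors and co-receptors, with Ly96, Lbp, Cd180 and Ly86 above, 1 rose, 2 fell, 6 were not called and 1 was not tested.

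Set on a common scale of CPM, the count relative to library size, per kilobase of the longest coding transcript, the order of the 10 genes changed between the groups. In sham-treated eosinophils Tlr13 came first at 36.4 ± 6.64 (SD, n = 3), followed by Myd88 at 28.5 ± 3.54 and Cd14 at 26.3 ± 8.81, and these 3 overlapped with their neighbours in the order. Below a gap came Tlr8 at 5.66 ± 2.21, Tlr4 at 5.23 ± 1.5, Tlr7 at 3.42 ± 1.46 and Tlr2 at 3.06 ± 1.12, each overlapping with the next. Tlr1 at 1.46 ± 0.125, Tlr9 at 1.45 ± 0.614 and Tlr6 at 1.27 ± 0.402 were lowest and overlapped with one another. Tlr1 and Tlr6 were separated from Tlr2, whereas the highest Tlr9 value, 1.94, was above the lowest Tlr2 value, 1.79.

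With EVs, Tlr13 was again first at 39.6 ± 2.32 (SD, n = 3) and Myd88 the next at 37.0 ± 1.63, and these overlapped. Tlr4 moved up to the third place at 25.3 ± 0.528 and was separated from its neighbours on both sides. Cd14 stood at 2.51 ± 0.332, separated from Tlr6 at 1.45 ± 0.158. Tlr6, Tlr2 at 1.21 ± 0.172 and Tlr8 at 1.06 ± 0.225 overlapped in turn. Tlr1 at 0.575 ± 0.187, Tlr9 at 0.499 ± 0.174 and Tlr7 at 0.372 ± 0.139 ended the order and overlapped, with Tlr7 moving from the sixth place to the last. In sham-treated eosinophils the level of Cd14 was above that of Tlr4 in every library, and with EVs it was below in every library.

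The makeup of the receptor transcripts shifted toward Tlr4. Taken as a share of the summed level of the 8 receptors on this scale, Tlr4 made up 8.66%, 8.16% and 10.1% in the sham-treated and 37.0%, 34.6% and 36.9% in the EV-treated libraries. Tlr13 made up 67.2%, 62.7% and 60.3% and then 56.3%, 57.6% and 55.6%. The other 6 receptors together fell from between 24.2% and 29.7% to between 6.67% and 7.89%. None of these 3 shares overlapped between the groups. The summed level itself was 42.9, 64.5 and 66.6 CPM per kilobase in sham-treated and 67.0, 73.4 and 70.0 in EV-treated libraries, with sham replicate 1 far below the rest and sham replicate 3 next to EV replicate 1. These shares are parts of 1 whole and were not tested.

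**Figure D4:**
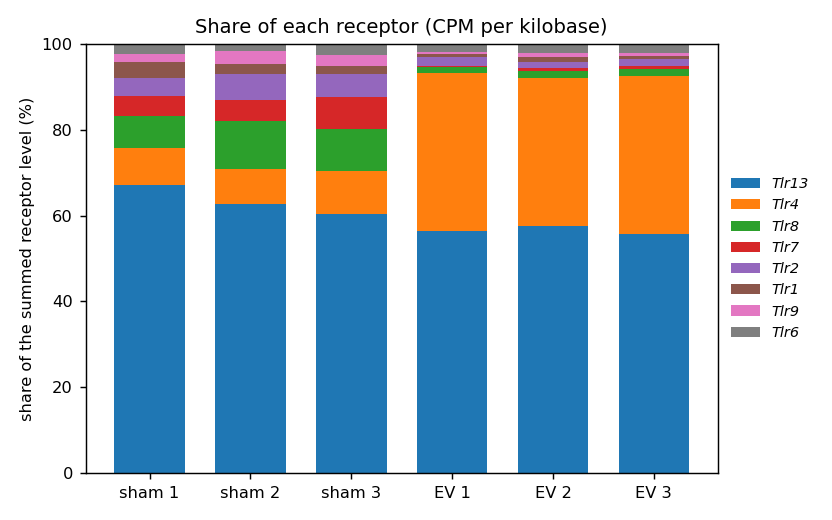
Share of each receptor in the summed level of the 8 receptors, in CPM per kilobase, as stacked bars from 0 to 100% for each library. Tlr4 (orange) widened from 8.16% to 10.1% in the sham-treated libraries to 34.6% to 37.0% in the EV-treated ones, and the bands above it, those of the other 6 receptors, narrowed in sum, although that of Tlr6 overlapped between the groups.

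Behind the receptors, 84 further genes of the pathway were grouped by role into 6 lists, of which 82 were in the table and 73 were tested. Together 14 rose, 17 fell and 42 were not called, and their median log2 fold change was -0.04, against -0.01 for all genes tested. Among the 12 genes for chaperones and endosomal processing of TLRs, 1 rose, 6 fell and 5 were not called, with a median log2 fold change of -0.69. The 4 with the largest change all fell. Rab7b, a small GTPase of late endosomes, fell by a log2 fold change of -3.27 (edgeR adjusted p = 6.2e-06). The lysosomal proteases Lgmn, Ctsb and Ctsl, which can cut the endosomal receptors into their active form, had log2 fold changes of -2.44, -2.35 and -2.07 (edgeR adjusted p = 1.24e-05, 2.08e-05 and 3.85e-05). Like Tlr2, Tlr7, Tlr8 and Cd14, these proteases were lowest in sham replicate 1 among the sham libraries, with Ctsb at 44278 normalized counts against 79548 and 77675. They are also abundant in macrophages, and the part of those cells was not tested.

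The 5 calls in the signalling core were all below a 2-fold change. Of 19 kinases and ubiquitin ligases, 3 rose, 2 fell and 14 were not called, with a median log2 fold change of 0.10. Traf3, a ubiquitin ligase of the TRIF branch, rose from 2393 ± 198 to 3762 ± 234 normalized counts (SD, n = 3), with a log2 fold change of 0.65 (edgeR adjusted p = 0.000132). Tab2 and Tab3, which hold the kinase TAK1 to ubiquitin chains, rose by log2 fold changes of 0.41 and 0.44 (edgeR adjusted p = 0.000333 and 0.00353). Ikbke, a kinase that activates interferon regulatory factors, fell by a log2 fold change of -0.50 (edgeR adjusted p = 0.00918). Leaving out EV replicates 1, 2 or 3 or sham replicate 2 ended the calls of Tab3 (adjusted p = 0.0182, 0.0212, 0.0115 and 0.0106) and of Ikbke (0.0416, 0.0501, 0.0255 and 0.0248), as did leaving out sham replicate 3 for Ikbke (0.032). The call of Ikbke was also lost in limma-voom (0.0118) and without the filter on low counts (0.0112), and that of Tab3 with total count scaling (0.0287). Both genes of this list that were called lower lost the call without sham replicate 2 or any 1 of the EV replicates, and 1 of them without sham replicate 3.

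Of 15 negative regulators of TLR signalling, 3 rose, 3 fell and 9 were not called, with a median log2 fold change of 0.14. Il1rl1 rose from 3071 ± 171 to 13389 ± 746 normalized counts (SD, n = 3), with a log2 fold change of 2.12 (edgeR adjusted p = 2.87e-08). Its product ST2 can sequester adaptors of TLR signalling, and it is best known as the receptor chain through which eosinophils respond to IL-33. Nfkbiz, a nuclear inhibitor of NF-kB that also co-activates some target genes such as Il6, rose by a log2 fold change of 0.81 (edgeR adjusted p = 0.00073). Atf3, a repressor of inflammatory genes, fell by a log2 fold change of -2.07 (edgeR adjusted p = 0.000114), and Tnip2, which binds the ubiquitin-editing enzyme A20, by one of -1.36 (edgeR adjusted p = 0.00032). Among the sham libraries Atf3 was lowest in sham replicate 1, at 1740 normalized counts against 2902 and 2676.

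Among 24 genes that TLR signals are known to induce, 23 were in the table and 16 were tested, of which 6 rose, 3 fell and 7 were not called. The median log2 fold change of those tested was 0.33. Without EV replicate 1 or EV replicate 2, 1 gene in place of 3 was called lower. The cytokine gene Il6 rose from 74.3 ± 12.4 to 629 ± 100.2 normalized counts (SD, n = 3), with a log2 fold change of 3.07 (edgeR adjusted p = 1.6e-06). Ptgs2, the inducible cyclooxygenase, rose by a log2 fold change of 2.25 (edgeR adjusted p = 4.31e-06) and Cd86, a co-stimulatory ligand for T cells, by one of 1.42 (edgeR adjusted p = 0.000165). Lcn2, which binds bacterial siderophores, fell from 1277 ± 157 to 350.1 ± 8.31 normalized counts (SD, n = 3), with a log2 fold change of -1.87 (edgeR adjusted p = 1.13e-06). All of these genes answer to signals other than TLRs as well.

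**Figure D5:**
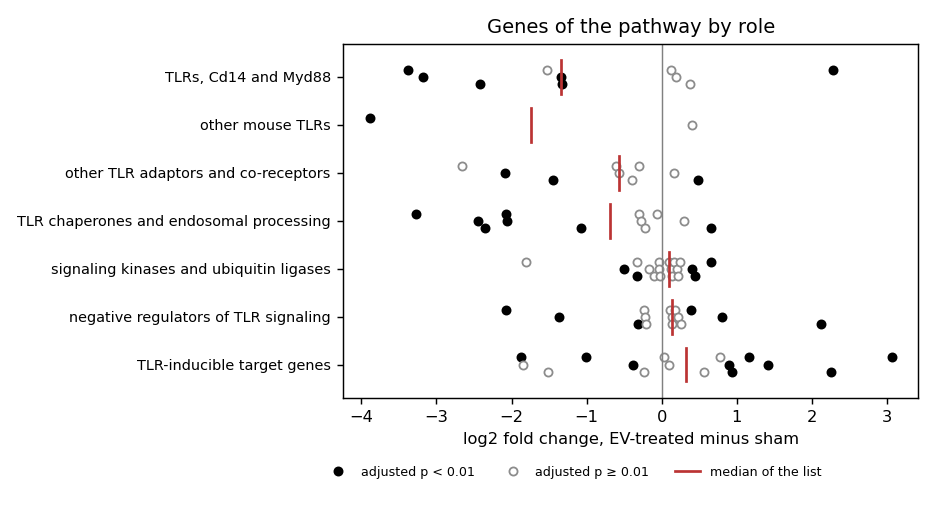
Log2 fold change, EV-treated minus sham-treated, of the 8 receptors with Cd14 and Myd88 and of the genes tested in 6 further lists of the pathway, 1 point per gene, filled where the edgeR adjusted p was under 0.01. Red lines are the medians of the lists, from -1.74 for the other mouse TLRs, of which 2 were tested, to 0.33 for the inducible target genes.

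Markers of further cell types were read beside these results. The 11 neutrophil markers in the table summed to 22946 to 26432 normalized counts in sham-treated and 20514 to 24479 in EV-treated libraries, with 2 higher and 6 lower, and 31.5% of the sham sum came from the granule gene Ngp. The 9 basophil and mast cell markers in the table summed to 5509 to 6905 and 13673 to 16209, with 6 higher and none lower. Those called higher, named after their values were seen, were Ms4a2, Mcpt8, Prss34, Cpa3, Cd200r3 and Gata2. Their log2 fold changes were 2.64, 2.46, 1.58, 1.30, 1.28 and 1.07. The transcription factor gene Gata2, which eosinophil precursors also express, gave 39.7% of the sham sum of the list. The tryptase gene Tpsb2 was at 0 in all sham-treated libraries and had at most 3 counts in an EV-treated one. The 9 dendritic cell markers in the table summed to 6122 to 7560 and 5420 to 6636, with Itgax giving 74.9% of the sham sum. Siglech was at 0 in all EV-treated libraries and in sham replicates 2 and 3, and had 9 counts in sham replicate 1. None of them was higher and 2 were lower, the transcription factor genes Irf8 and Tcf4, named after their values were seen, with log2 fold changes of -3.15 and -2.16 (edgeR adjusted p = 5.01e-05 and 1.08e-05). T cell markers did not sum above 139 in any library, and B cell markers not above 190. Of the T cell markers, Cd2 and Cd5 were at 0 in all sham-treated libraries and had at most 2 and 1 counts in an EV-treated one. In the macrophage and monocyte list, Cx3cr1 was at least 61.6-fold lower with EVs, against a floor of 3 counts per library, and Lyz2 made up 41.6% of the sham sum. The part of any of these cell types in the receptor values was not tested.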

How the data were processed

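Poly(A)-selected RNA of 3 sham-treated and 3 EV-treated eosinophil cultures was sequenced. The authors checked reads with FastQC, trimmed them with Cutadapt and quantified them with Salmon, and the submitters' processing notes name mm10. Versions, annotation and strandedness are not given in the sources used here. The authors deposited expected counts, which are estimated counts that need not be whole, for 16254 genes by symbol. They also deposited normalized counts and a DESeq2 table of mean counts, fold changes, statistics and p-values, neither of which was used.

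Estimated counts were rounded and tested in R 4.3.3 with edgeR 4.0.16, using TMM scaling, filterByExpr and the quasi-likelihood test, with Benjamini-Hochberg adjustment over 13498 genes and a call at an adjusted p under 0.01. DESeq2 1.42.0 and limma-voom (limma 3.58.1) were alternatives, and so were a fit with replicate number as a block, 2 other scalings, tests without the filter, other thresholds and the removal of each library in turn. Summing Tlr1 and Tlr6 was added after the data had been seen. Standard errors were obtained from the log2 fold change and the F statistic, as the ratio of the former to the square root of the latter. Totals of 23697620 to 37874426 counts per library leave the spread between cultures as the main error for all but low genes, and no library was a copy of another, with a chi-square per gene of 8.37 to 31.8 between replicates, where sampling noise gives about 1. On counts simulated for 13498 genes with 200 changed, edgeR called 146 of them and 5 others, DESeq2 154 and 11, and limma-voom 138 and 2, at the same threshold.

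Positions, transcript lengths and shared 31-base words came from GENCODE vM21 on GRCm38, the assembly of mm10, and promoters from RefSeq on GRCm38.p6. Symbols were matched as written. The genes, pathway lists and marker lists were chosen with earlier results of these data known, and lists are described by counts and medians with no test. Named were the 10 genes, every other TLR, adaptor and co-receptor listed, the 4 genes of each other pathway list with the largest absolute log2 fold change among those called without overlap, and marker genes at 0 or carrying most of a sum. Genes called in the basophil and mast cell list and in the dendritic cell list were named after their values had been seen.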

Additional observations from a re-analysis of the deposited data

How the results depend on the processing

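Counts of calls among the 10 genes moved by at most 2. The number higher with EVs was 1, and 2 with DESeq2's size factors, without the filter on low counts, in DESeq2, in limma-voom, with the replicate block and at an adjusted p under 0.05, Myd88 being the gene added. It ranged from 1 to 2 with 1 library left out, and the number lower ranged from 3 to 5 against 5. The replicate block, with replicate numbers shared by the groups, added Myd88 (adjusted p = 0.00237) and Tlr9 (0.00124). Deviations of same-numbered libraries correlated across genes by 0.0967, 0.0812 and 0.0472, each library best with its own number, a hint from the data below the 0.1 set for pairing. Over all genes, 1632 were higher and 1572 lower, and 1794 and 1781 with the block. With 1 library left out they ranged from 1071 to 1833 and from 1018 to 1698. Total count scaling shifted the median log2 fold change of all genes by -0.15 and gave 1036 higher and 2342 lower, with 30.7% of calls upward against 50.9%. Requiring a log2 fold change of 1 gave 419 and 857, and 5 other pathway genes higher in place of 14, and an adjusted p under 0.05 gave 2478 lower.

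Signs turned in genes that were not called. Tlr13 had a log2 fold change of -0.0272 with total count scaling and -0.0161 without sham replicate 1 (-0.0161 to 0.2080 with 1 library left out), Tlr6 one of -0.3578 when summed with Tlr1, and Tlr12 one of -0.1604 without sham replicate 2 (-0.1604 to 1.4822 with 1 library left out). The cause was not tested. The value of -0.3578 for Tlr1 and Tlr6 summed belongs to the pair and is not a turned sign of Tlr6 itself. Of 122 alternative values for the 10 genes, 97 kept sign and side of the threshold, 11 newly passed, 11 no longer passed and 3 changed sign. The summed pair was counted among them for Tlr1, as no longer passing, and for Tlr6, as a changed sign. Of 324 alternative values for the other named genes, 303 kept sign and side of the threshold, 4 newly passed, 16 no longer passed and 1 changed sign. Tlr12 and Tlr5 had few counts, and what difference could be detected in them was not tested.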
